A study of Mus musculus with 11 samples.

Results

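Integrins and laminins were followed in liver RNA from 11 males of the Clec4f-DTR genotype. Members were the genes named Itga, Itgb or Lama, Lamb or Lamc in the count table with at least 10 counts summed over the 11 libraries. All 37 genes found by name passed, 18 integrin alpha, 8 integrin beta and 11 laminin genes of 55414 genes in the table, and all 37 were among the 17038 genes tested. The 3 livers called chow came from mice on normal chow diet, whose titles name no injections. The 4 saline livers came from mice on western diet with alcohol and serial saline injections, and the 4 DT livers from mice on the same diet with serial injections of DT, diphtheria toxin. Mice were 8 weeks old at the start and the diets lasted 16 weeks. In Clec4f-DTR mice the promoter of Clec4f, active in Kupffer cells (resident macrophages of the liver), drives the toxin receptor. All 3 groups carry it. Nothing in the labels says how the livers of a group were collected, so p-values measure the spread between these samples, part of which may be technical.

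Integrins are receptors made of 1 alpha and 1 beta chain that span the cell membrane and bind matrix proteins or other cells. Laminins are trimers of an alpha, a beta and a gamma chain, and they form the sheet of the basement membrane on which epithelial, endothelial and muscle cells sit. In the liver, hepatocytes face a space with little basement membrane, bile duct cells (cholangiocytes) rest on a laminin-rich one, and leukocytes carry their own integrins for adhesion and migration. The 37 genes were grouped by role into 9 leukocyte integrins, 6 integrins known from epithelia, 11 integrins that bind matrix on many cells, and 11 laminin chains. Itga2b, of platelets, was counted among the leukocyte integrins. In whole tissue, fewer cells of a type and less RNA per cell cannot be told apart.

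Each liver gave between 43995217 and 58089531 counts. A level of 3 counts corresponded to 0.0398 to 0.0773 CPM (counts scaled to a fixed library total), the lower limit of detection for counting error. Low counts were mostly even, so both mates of a pair may have been counted, and this limit may then be too low. Values are CPM scaled by TMM factors. Log2 fold changes, their standard errors (SE) and adjusted p-values come from edgeR's quasi-likelihood test with Benjamini-Hochberg adjustment over all genes tested, and a gene is said to have risen or fallen, or to be called, where the adjusted p was below 0.05. The extraction text speaks of sorted CD45+ cells for single-cell work, but the samples are labelled as whole liver, and 6 hepatocyte markers summed to between 62000 and 127000 CPM. DT liver 2 stood apart from DT livers 1, 3 and 4 in most of the 37 genes, and where a call among them in DT against saline was gained without it, the value without it is given. Of the genes called in DT against saline, 65.2% were higher, against 92.1% under total count scaling and 37.6% after correction for GC content. For DT against chow these shares were 64.5%, 94.8% and 38.2%, and for saline against chow 43.9% with TMM and 67% with total counts. Total count scaling moved the median log2 fold change of all genes from 0.02 to 0.36 in DT against saline, and GC correction moved it to -0.16.

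Promoter windows are printed for the called member with the smallest p in each group of roles that has a single window, and for Itgax, which lies beside Itgam and rose with it. RefSeq windows on GRCm38.p6, an earlier build than the one used for counting, existed for 23 of the 37 genes. Each shows the 250 bases before the start of transcription, 5′ to 3′ on the gene's own strand. Capitals mark matches, on either strand, to TGANTCA (the AP-1 motif), GGAATG (TEAD), GAGGAA (an ETS core bound by PU.1) or GGGCGG (SP1).
Itgam, chr7:128062390-128062639, plus strand: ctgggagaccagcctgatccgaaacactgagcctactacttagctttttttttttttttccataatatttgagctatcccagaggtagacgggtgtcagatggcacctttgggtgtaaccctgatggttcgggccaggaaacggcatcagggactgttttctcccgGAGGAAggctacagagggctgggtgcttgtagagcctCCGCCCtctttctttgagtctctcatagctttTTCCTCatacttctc
Itgax, chr7:128129300-128129549, plus strand: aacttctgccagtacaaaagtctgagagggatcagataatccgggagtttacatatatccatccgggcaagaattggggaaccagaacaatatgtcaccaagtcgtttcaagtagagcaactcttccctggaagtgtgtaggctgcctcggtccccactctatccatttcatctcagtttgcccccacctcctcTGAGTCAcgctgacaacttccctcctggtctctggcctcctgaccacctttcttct
Itgb8, chr12:119238277-119238526, minus strand: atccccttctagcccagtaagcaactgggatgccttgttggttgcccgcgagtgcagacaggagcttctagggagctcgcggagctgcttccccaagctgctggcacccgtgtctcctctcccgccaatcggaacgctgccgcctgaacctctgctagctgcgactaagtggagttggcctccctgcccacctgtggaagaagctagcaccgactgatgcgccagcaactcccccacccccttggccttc
Itga5, chr15:103366792-103367041, minus strand: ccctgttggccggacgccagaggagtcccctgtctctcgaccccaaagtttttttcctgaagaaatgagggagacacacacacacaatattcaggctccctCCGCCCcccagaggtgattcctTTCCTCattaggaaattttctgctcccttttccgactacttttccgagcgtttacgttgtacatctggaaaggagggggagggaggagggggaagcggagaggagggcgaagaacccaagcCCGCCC
Lama5, chr2:180225860-180226109, minus strand: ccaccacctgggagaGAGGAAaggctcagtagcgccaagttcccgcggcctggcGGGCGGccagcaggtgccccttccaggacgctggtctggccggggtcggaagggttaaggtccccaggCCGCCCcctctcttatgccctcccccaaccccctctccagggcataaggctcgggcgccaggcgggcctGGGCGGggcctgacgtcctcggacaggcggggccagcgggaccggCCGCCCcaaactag

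The windows of Itgam and Itgax, 2 leukocyte alpha chain genes on chromosome 7, shared none of the 4 motifs: Itgam held 2 GAGGAA and 1 GGGCGG match, and Itgax 1 TGANTCA match. No match was found in the window of Itgb8, and the window of Lama5 held 4 GGGCGG and 1 GAGGAA. Over the 23 genes with a window, GAGGAA was found in 13, in 9 of the 14 with a window that rose in DT against saline and in 4 of the 9 others, and 23.3% of all 32851 windows of that length held it. GGGCGG was found in 6 of those 14 and 2 of those 9, against 32.7% of all windows. GGAATG was found in 0 of the 14 and 3 of the 9, against 12.6%, and TGANTCA in 1 of the 14 and 0 of the 9, against 6.75%. These are letter matches and say nothing of binding.

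**Figure D1:**
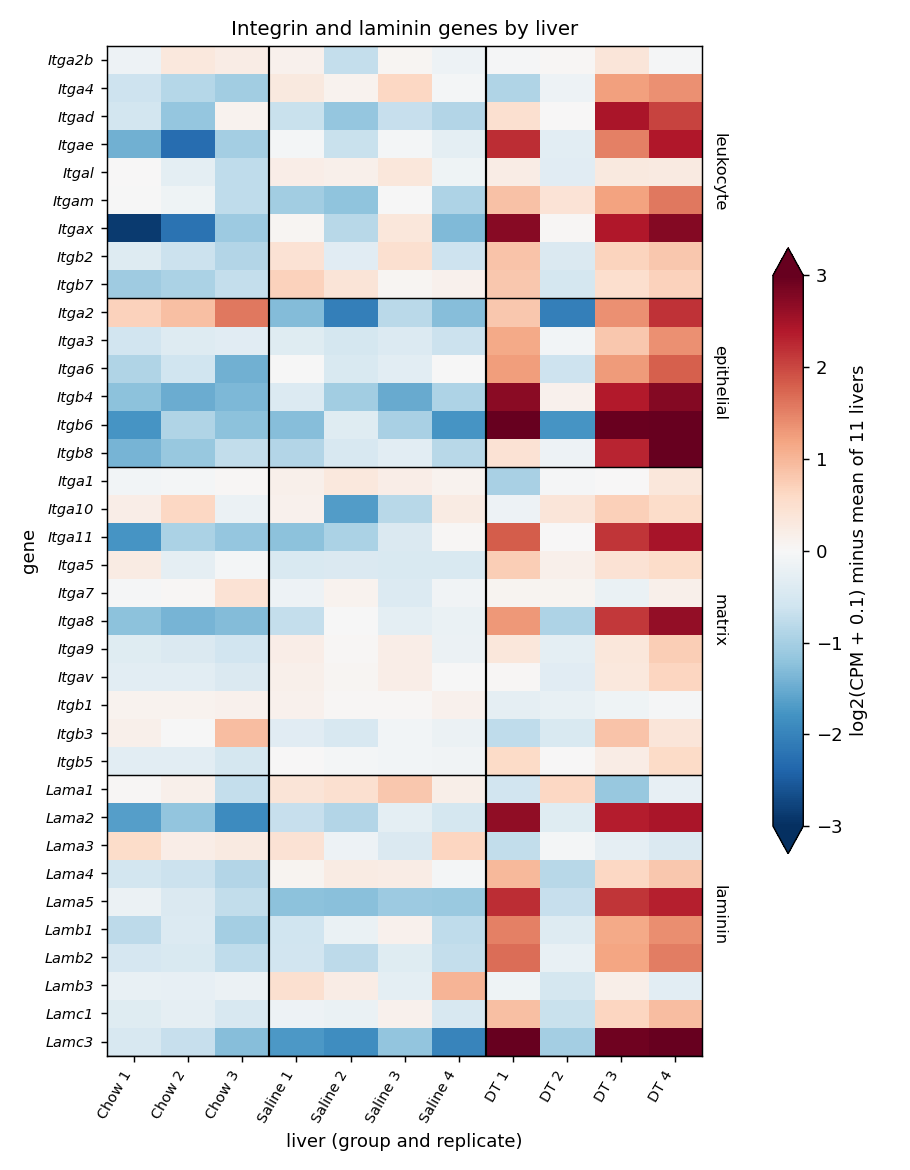
Level of 36 genes in each of the 11 livers, as log2(CPM + 0.1) minus the mean of all 11 livers; rows are genes grouped by role, columns are livers, and colours saturate at the ends of the scale. DT livers 1, 3 and 4 are red in most epithelial rows and in Lama2, Lama5, Lamb1, Lamb2 and Lamc3, while DT liver 2 resembles the saline columns.

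Saline against chow asked what western diet with alcohol, with saline injections, changed without toxin. Of the 37 genes 1 rose, Itgb7, the beta chain of lymphocyte homing integrins, and the other 36 did not pass the test in either direction. Over all 17038 genes tested 2.45% were called higher and 3.13% lower. The median log2 fold change of the 37 genes was 0.41, beside 0 over all genes. If chow mice were not injected, diet and injection cannot be told apart in this comparison.

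Itgb7 stood at 1.49, 1.64 and 1.94 CPM in the chow livers and at 5.34, 4.31, 3.40 and 3.58 CPM in the saline livers. The groups did not overlap, and the log2 fold change was 1.30 (SE 0.32, adjusted p = 0.0361). That call ended without any 1 of the 3 chow livers, of the 4 saline livers or without DT liver 3 (edgeR adjusted p from 0.0501 to 0.154). It also ended with total count scaling (1.42, edgeR adjusted p = 0.0505), with limma-voom (1.27, adjusted p = 0.0995) and with the replicate number as a block (1.26, edgeR adjusted p = 0.0879). Summed markers of T and NK cells ran from 3.06 to 4.04 CPM in chow and from 4.6 to 7.97 CPM in saline livers, with 0 of 8 called, and their part in the Itgb7 result was not tested.

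The collagen-binding alpha chain gene Itga2 had the lowest fold change of the 37. Its levels were 1.11, 1.31 and 2.15 CPM in chow livers and 0.204, 0.0814, 0.329 and 0.213 CPM in saline livers. All 4 saline livers lay below all 3 chow livers, with a log2 fold change of -2.86 (SE 0.82), but edgeR's adjusted p was 0.0657. DESeq2 called it lower (adjusted p = 0.00629).

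The count of calls depended on which livers were in the fit, for these genes and for all genes. With chow and saline livers alone, 13 of the 34 genes that passed the filter on low counts were called, 9 higher and 4 lower, and 20.1% of all genes tested were called in that fit, against 5.58% with all 11 livers. Without DT liver 2, 9 of the 37 were called, 6 higher and 3 lower, and 11.4% of all genes. With only those groups, the higher genes were Itga4, Itga6, Itga8, Itga9, Itgav, Itgb5, Itgb7, Lama2 and Lama4, with log2 fold changes from 0.34 (Itgb5) to 1.31 (Itgb7), and the lower genes were Itga2, Itga5, Lama5 and Lamc3, from -2.84 (Itga2) to -0.43 (Itga5). Itgav, the RGD-binding alpha chain shared by several beta chains, was at 22.3, 22.4 and 20.4 CPM in chow and at 31.1, 29.0, 32.0 and 27.6 CPM in saline livers, without overlap (log2 fold change 0.46, SE 0.19, adjusted p = 0.183 in the fit of all 11 livers).

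DT against saline asked what serial DT injection changed on the same diet. A rise was called in 20 of the 37 genes (54.1%), a fall in none, and 17 did not pass, while 14.3% of all genes tested were called higher and 7.62% lower. The median log2 fold change was 0.94, beside 0.02 over all genes. All 6 epithelial integrins rose, as did 6 of 11 laminin chains, 4 of 9 leukocyte integrins and 4 of 11 matrix integrins. The roles were chosen with earlier results of these data known, so this split by role is a description only. Itgb6, counted among the 6, did not pass the filter on low counts without DT liver 1, 3 or 4. In the fits without 1 DT liver, the count went the same way as the share of all genes called. Without DT liver 2, 25 of the 37 were called, 24 higher and 1 lower (Lama1, log2 fold change -1.12, edgeR adjusted p = 0.00858), and 40.3% of all genes, against 21.9% with all 11 livers. Without DT liver 3 the count was 13 and without DT liver 4 it was 12, each of 35 genes tested, with 11.5% and 11% of all genes called. A fit with limma-voom called 10, all higher, and 18.2% of all genes. With no filter 18 were called, and 10.4% of all genes. In these fits the count and the share did not move alike.

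**Figure D2:**
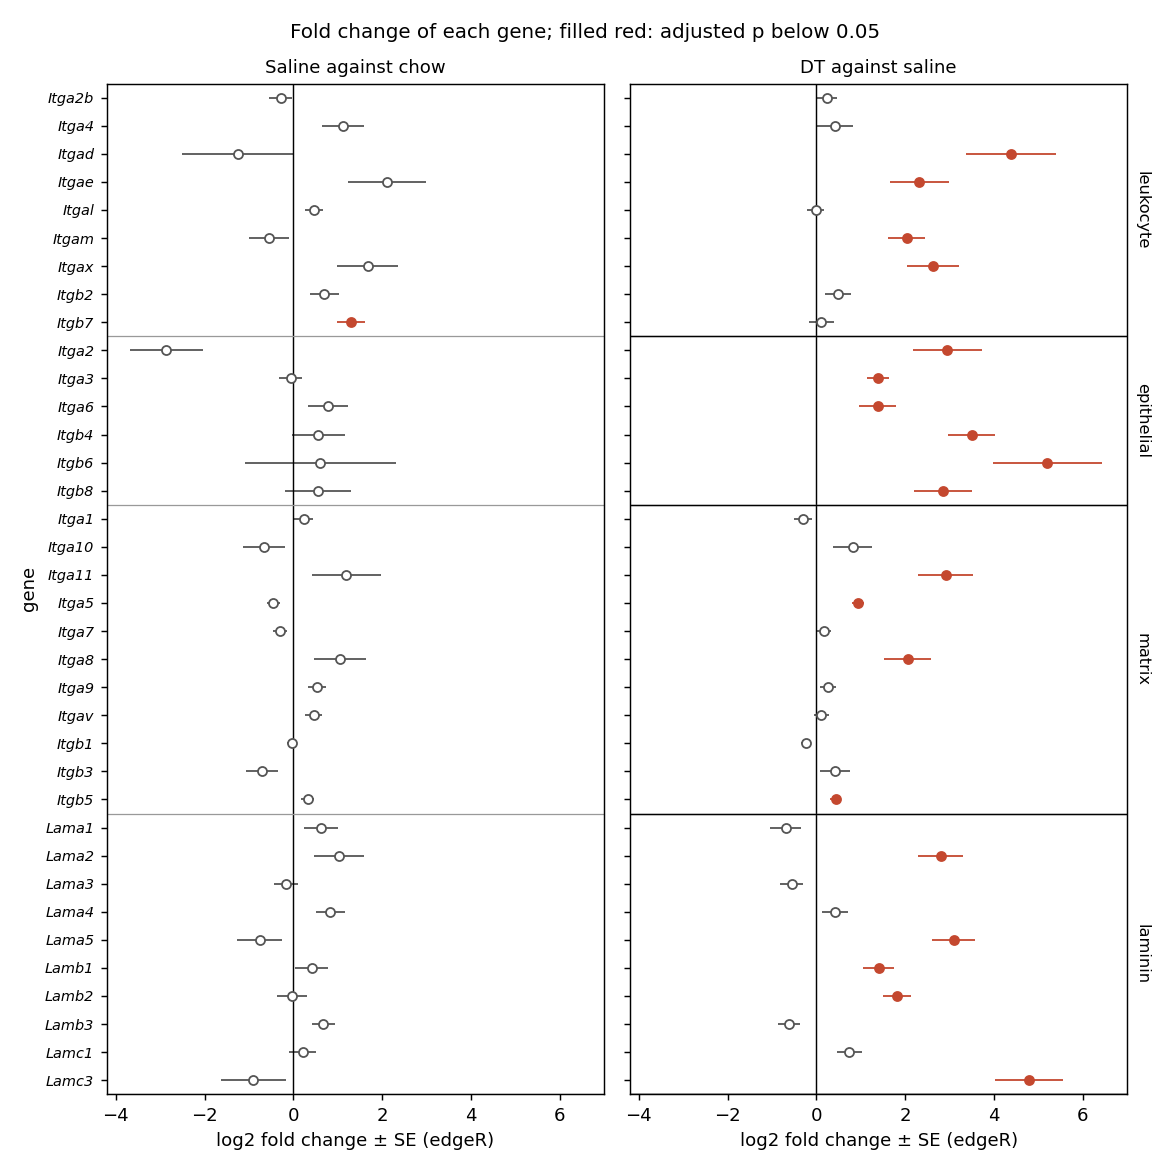
Log2 fold change from edgeR with its SE for 36 genes, saline against chow on the left and DT against saline on the right; filled red points have an adjusted p below 0.05. On the left 1 point is red, on the right 19, all of them above 0 and 6 of them in the epithelial block.

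Among the epithelial integrins, the hemidesmosome chain Itgb4 had the smallest p. Its level was 0.632, 0.366, 0.238 and 0.405 CPM in the saline livers and 6.19, 0.957, 4.94 and 6.46 CPM in the DT livers. Every DT liver was above every saline liver, liver 2 by the smallest margin, and the log2 fold change was 3.50 (SE 0.53, adjusted p = 0.00443). Its alpha partner Itga6, which also pairs with Itgb1, rose less. Itga6 was at 3.18, 2.32, 2.56 and 3.15 CPM in saline and at 7.79, 2.04, 7.91 and 11.4 CPM in DT livers. DT liver 2 lay below all 4 saline livers, and the log2 fold change was 1.38 (SE 0.41, adjusted p = 0.0333).

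The laminin-binding chain Itga3 was the most abundant of the 6 per length, at a mean of 1.29 CPM per kb of exon in saline and 3.38 in DT livers. Its level rose from 8.01, 7.06, 7.76 and 6.58 CPM in saline livers to 22.8, 9.68, 18.1 and 26.7 CPM in DT livers, with no overlap. The log2 fold change was 1.39 (SE 0.25, adjusted p = 0.00673).

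Itgb6 and Itgb8 encode beta chains that pair with the alpha-v chain and can release active TGF-beta. Itgb6 was at or near the limit of detection in saline livers, at 0.0408, 0.163, 0.0732 and 0 CPM, and its DT values were 2.99, 0, 2.57 and 5.01 CPM. In DT liver 2 the count was 0, which allows up to 0.0624 CPM, or more if both mates were counted. The groups overlap despite a fitted log2 fold change of 5.20 (SE 1.23, adjusted p = 0.0148). For Itgb8 the saline livers gave 0.408, 0.569, 0.658 and 0.426 CPM and the DT livers 1.16, 0.749, 4.49 and 8.51 CPM. The groups were separate, DT livers 3 and 4 were the highest, and the log2 fold change was 2.85 (SE 0.66, adjusted p = 0.0140).

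Itga2, low in saline livers, was at 1.22, 0.0832, 1.85 and 3.27 CPM in DT livers. DT livers 1, 3 and 4 lay above the saline range of 0.0814 to 0.329 CPM and DT liver 2 inside it (log2 fold change 2.95, SE 0.78, adjusted p = 0.0223). The DT level did not pass the test against chow (0.09, SE 0.75, adjusted p = 0.943), and both comparisons of Itga2 with saline share the saline livers. Calls of Itga2 ended without DT liver 3 or 4 or saline liver 1, 2 or 4 (edgeR adjusted p 0.0543 to 0.0701), and those of Itga6 without any saline liver or DT liver 1, 3 or 4 (0.0563 to 0.103). Without DT liver 3, or without DT liver 4, 3 epithelial integrins were called, beside 11.5% and 11% of all genes tested. Itgb6, 1 of the 6, did not pass the filter on low counts there.

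Markers of cholangiocytes moved with these genes. All 8 rose, and their summed level was 364, 28.8, 234 and 416 CPM in DT livers 1 to 4 against 20.3 to 46.3 CPM in saline livers. None of the 8 was at 0. In DT liver 2 the marker sum was inside the saline range, as was its level of Itga2 and Itgb6, while Itga6 was below that range and Itga3, Itgb4 and Itgb8 were above it. The part of the bile duct markers in the epithelial integrin result was not tested.

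**Figure D3:**
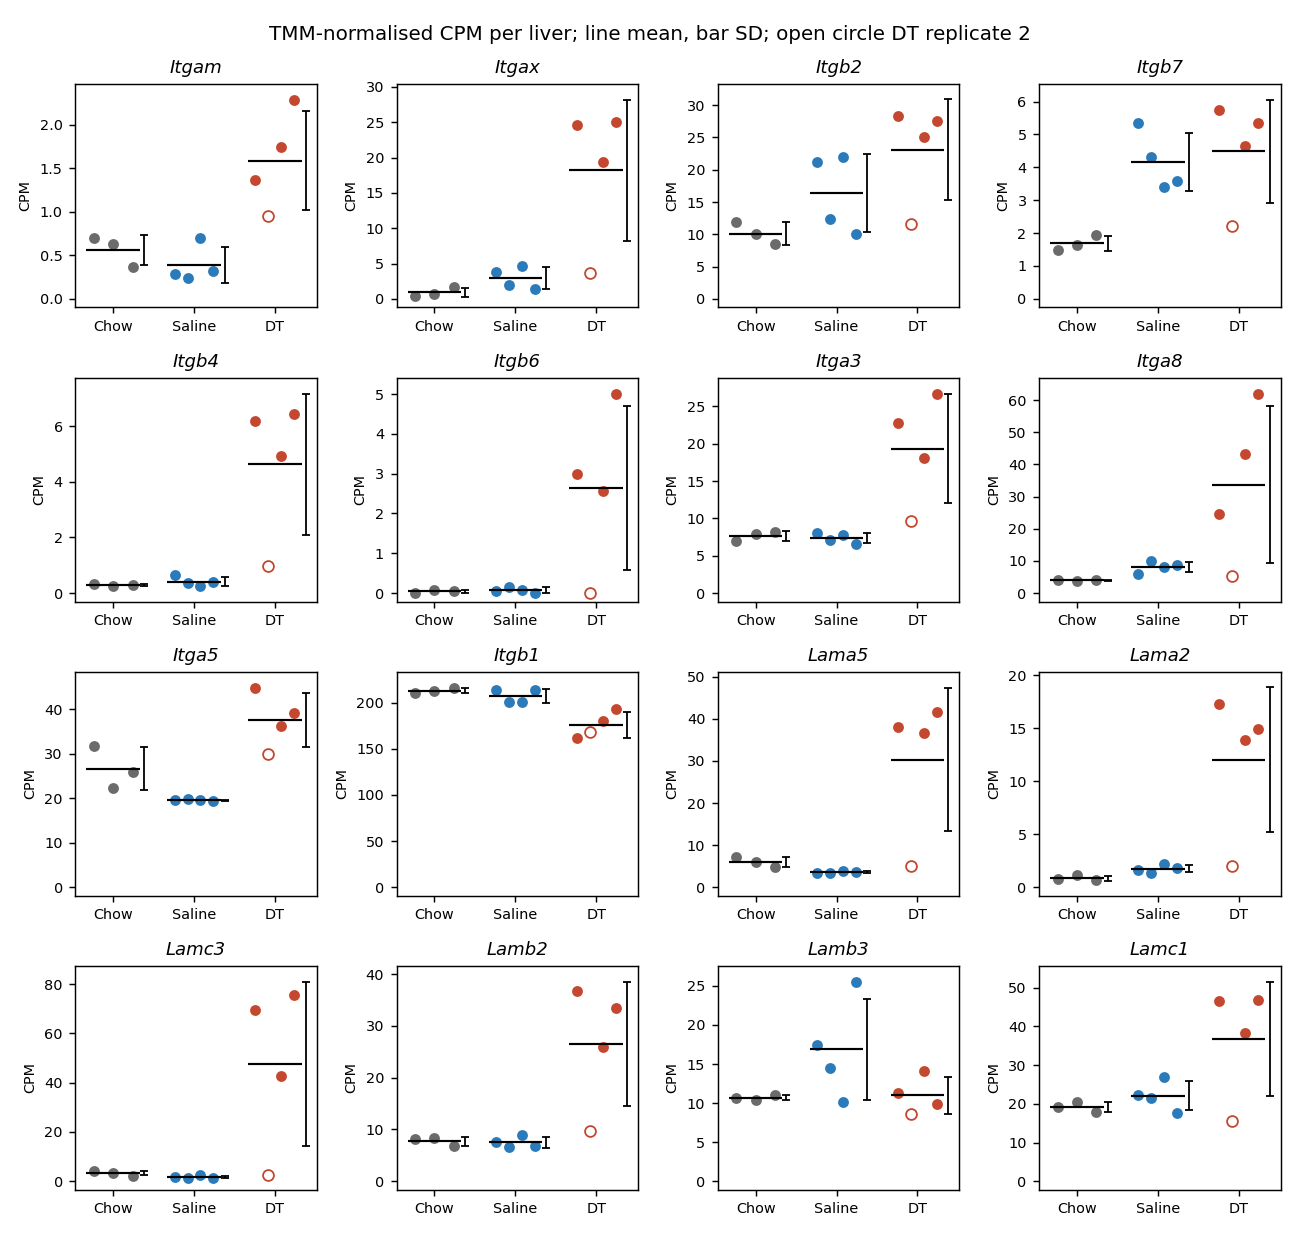
CPM per liver for 16 of the 37 genes on linear axes that include 0; points are livers, black lines the group means and bars 1 SD to the right of each group, with DT liver 2 as an open circle. The open circle lies at or near the saline points in most panels, for example at 0 CPM for Itgb6 and 2.73 CPM for Lamc3.

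Of the laminin alpha chains, Lama5 and Lama2 rose. Lama5, the widespread epithelial and vascular chain, stood at 3.42, 3.38, 3.77 and 3.71 CPM in saline livers and at 38.2, 5.01, 36.6 and 41.6 CPM in DT livers. Even DT liver 2 was above each saline liver, and the log2 fold change was 3.09 (SE 0.49, adjusted p = 0.00534). Against chow livers, at 7.26, 6 and 4.85 CPM, DT liver 2 overlapped. Lama2, the chain of muscle and nerve basement membranes, was at 1.59, 1.38, 2.14 and 1.79 CPM in saline and at 17.3, 2.04, 13.9 and 14.9 CPM in DT livers. DT liver 2 was inside the saline range, and the log2 fold change was 2.80 (SE 0.51, adjusted p = 0.00691). Lama1, Lama3 and Lama4 were not called (log2 fold changes -0.69, -0.56 and 0.42). Without DT liver 2, Lama4 was called higher (0.69, edgeR adjusted p = 0.0028) and Lama1 lower, as given above.

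Both beta chains that join most laminin trimers rose. Lamb1 was at 7.17, 9.52, 12 and 6.47 CPM in saline and at 31.2, 8.34, 24.2 and 28.8 CPM in DT livers (log2 fold change 1.40, SE 0.35, adjusted p = 0.0181). Lamb2 was at 7.66, 6.59, 8.93 and 6.90 CPM in saline and at 36.7, 9.76, 26.0 and 33.4 CPM in DT livers (1.82, SE 0.32, adjusted p = 0.00666). For Lamb2 the groups were separate, while for Lamb1 DT liver 2 lay within the saline range. The Lamb1 call ended without saline liver 1 or 4 or DT liver 4 (edgeR adjusted p 0.0524 to 0.0599).

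Lamb3 and Lama3 encode chains of laminins that anchor epithelia. Lamb3 was at 17.4, 14.5, 10.2 and 25.5 CPM in saline and at 11.3, 8.64, 14.1 and 9.93 CPM in DT livers. Those ranges overlapped, and neither Lamb3 (log2 fold change -0.62, SE 0.24, adjusted p = 0.0833) nor Lama3 (-0.56, SE 0.25, adjusted p = 0.127) was called. After GC correction, added after the data were seen, both were called lower (-1.04 and -0.78, edgeR adjusted p = 0.0121 and 0.0478).

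Among the gamma chains, Lamc1, the common one, was at 22.4, 21.5, 27.0 and 17.7 CPM in saline livers and at 46.6, 15.6, 38.4 and 46.8 CPM in DT livers. DT livers 1, 3 and 4 were above and DT liver 2 below all saline livers, and Lamc1 was not called (log2 fold change 0.74, SE 0.28, adjusted p = 0.0751). It was called by DESeq2 (0.75, adjusted p = 0.0420) and without DT liver 2 (0.99, edgeR adjusted p = 0.00024). Lamc3, a gamma chain of restricted expression, was at 1.63, 1.48, 2.41 and 1.34 CPM in saline livers and at 69.6, 2.73, 42.8 and 75.8 CPM in DT livers. DT liver 2 was just above the highest saline liver, and Lamc3 rose by a log2 fold change of 4.79 (SE 0.76, adjusted p = 0.00530).

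The make-up of the laminin alpha and beta chain genes per exon length shifted with these levels. The share of Lama5 among alpha chains was 56.1%, 24.6%, 59.5% and 59.7% in DT livers, against 15.1% to 16.5% in saline livers and 29.3% to 31.8% in chow livers. Lamb3 held 15.2% to 34.8% of the beta chains in DT livers and 36.6% to 68.3% in saline livers. These shares are a description, with no test, and they depend on the exon lengths of GENCODE M21.

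**Figure D4:**
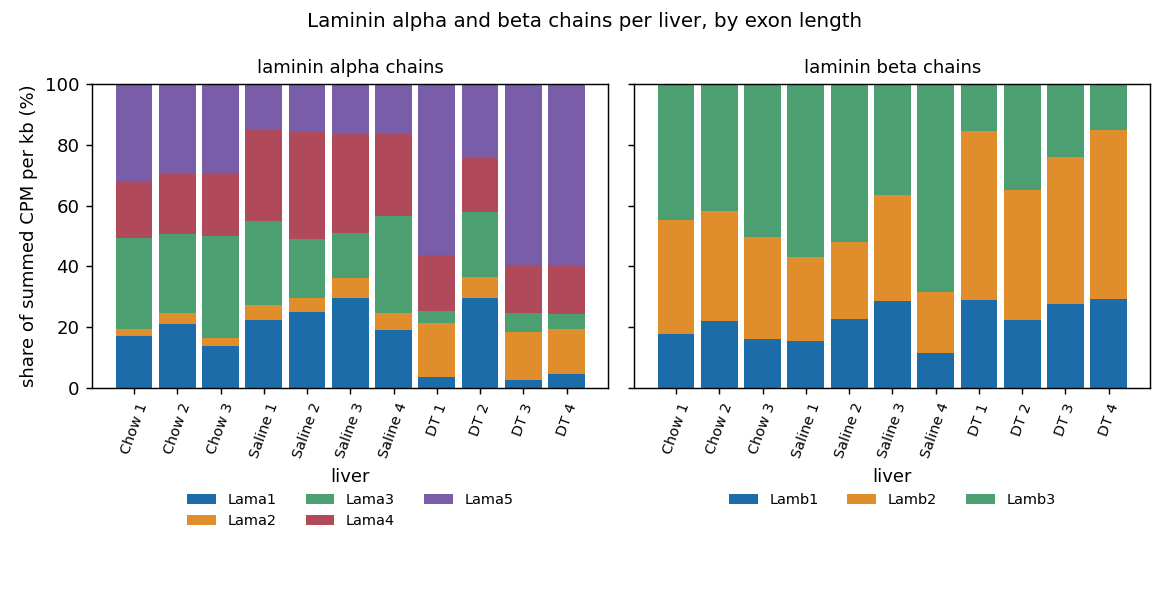
Share of each laminin gene in the summed CPM per kb of exon of its chain type, in percent, for each of the 11 livers; the panels are alpha and beta chains, and each bar sums to 100%. Lama5 is the largest alpha chain in DT livers 1, 3 and 4.

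Of the leukocyte integrins, 3 alpha chains of Itgb2 rose. Itgam (CD11b, of myeloid cells) was at 0.285, 0.244, 0.695 and 0.319 CPM in saline and at 1.37, 0.957, 1.74 and 2.29 CPM in DT livers. The groups were separate, including DT liver 2, with a log2 fold change of 2.03 (SE 0.41, adjusted p = 0.00921). The level of Itgam may be undercounted, since 68.7% of its exon bases lie in another gene, Gm49368, on the same strand, and how shared reads were treated is not stated. Itgax (CD11c, of dendritic cells and some macrophages) rose from 3.79, 1.99, 4.63 and 1.38 CPM to 24.6, 3.68, 19.4 and 25 CPM. Here DT liver 2 lay within the saline range (log2 fold change 2.62, SE 0.59, adjusted p = 0.0127). Per length, Itgax made up 58.1%, 23.5%, 49.6% and 56.7% of the sum of Itgal, Itgax and Itgad in DT livers and 9.12% to 19.5% in saline livers.

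Itgad (CD11d) was at or below the limit of detection in saline livers (0.0408, 0, 0.0366 and 0.0213 CPM) and at 0.209, 0.125, 1.12 and 0.809 CPM in DT livers. All 4 DT livers were higher, and the fitted log2 fold change of 4.39 (SE 1.01, adjusted p = 0.0134) rests on saline counts too few to fix its size. Itgae (CD103, which pairs with the chain of Itgb7 and binds E-cadherin) was at 0.367, 0.203, 0.366 and 0.298 CPM in saline and at 2.15, 0.291, 1.28 and 2.47 CPM in DT livers. DT liver 2 fell inside the saline range (log2 fold change 2.32, SE 0.66, adjusted p = 0.0287). The Itgae call ended without any saline liver or DT liver 1, 3 or 4 (edgeR adjusted p 0.0532 to 0.0847). Without DT liver 1, 3 or 4, 2 leukocyte integrins were called in each case, beside 18.8%, 11.5% and 11% of all genes tested. Itgad, 1 of the 9, did not pass the filter on low counts there.

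Itgb2, the beta chain that these alpha chains share, was not called. It was at 21.2, 12.4, 21.9 and 10.1 CPM in saline livers and at 28.3, 11.6, 25 and 27.5 CPM in DT livers. DT livers 1, 3 and 4 were above each saline liver and DT liver 2 was within their range (log2 fold change 0.49, SE 0.30, adjusted p = 0.254). Without DT liver 2 it was called (0.71, edgeR adjusted p = 0.0432). Itgal (LFA-1), Itga4 (VLA-4), Itga2b (of platelets) and Itgb7 had log2 fold changes of -0.02, 0.41, 0.23 and 0.11 and were not called. Itgb7 was at 5.73, 2.21, 4.65 and 5.34 CPM in DT livers, and DT liver 2 was below the saline range.

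Of 13 markers of leukocytes and myeloid cells 1 rose and 1 fell, and their sum ranged between 242 and 488 CPM in DT livers and between 235 and 370 CPM in saline livers. All 6 Kupffer cell markers fell, from sums of 265 to 370 CPM to 111 to 184 CPM. Of 6 dendritic cell markers 1 rose, and the sum of all 6 was 9.05 to 21.2 CPM in DT livers against 9.07 to 10.6 CPM in saline livers. Of 8 T and NK cell markers 1 rose and none fell. Their sum was 13.4, 6.01, 9.19 and 8.36 CPM in DT livers against 4.6 to 7.97 CPM in saline livers. None of these markers was at 0 in all livers of a group, and their part in the leukocyte integrin result was not tested.

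Among the matrix integrins, Itga5, the fibronectin receptor chain, had the smallest p of all 37 genes. Saline livers were at 19.5, 19.7, 19.6 and 19.4 CPM and DT livers at 44.8, 30.0, 36.3 and 39.2 CPM. The groups were separate, DT liver 2 included, with a log2 fold change of 0.94 (SE 0.14, adjusted p = 0.00407). Chow livers, at 31.8, 22.3 and 25.8 CPM, lay above all saline livers and overlapped the DT livers. Against chow the value was 0.50 (SE 0.15, edgeR adjusted p = 0.0324). After GC correction Itga5 was still called against saline (0.46), but not against chow (0.06, edgeR adjusted p = 0.751). Itga8, an RGD-binding chain of mesenchymal cells, was at 5.95, 9.84, 8.05 and 8.62 CPM in saline and at 24.5, 5.16, 43.2 and 62.0 CPM in DT livers. DT liver 2 was the lowest of these 8 livers (log2 fold change 2.06, SE 0.53, adjusted p = 0.0196). Itga11, a collagen receptor chain of fibroblasts, was at 0.0815, 0.122, 0.219 and 0.341 CPM in saline and at 1.40, 0.333, 1.78 and 2.27 CPM in DT livers. Its groups overlapped through DT liver 2 alone (log2 fold change 2.91, SE 0.62, adjusted p = 0.0106).

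Itgb5, a partner of the alpha-v chain, was at 85.6, 82.4, 80.9 and 79.3 CPM in saline and at 127, 86.3, 100 and 127 CPM in DT livers. DT liver 2 was just above the highest saline liver (log2 fold change 0.43, SE 0.13, adjusted p = 0.0378). After GC correction the Itgb5 value was -0.01 (edgeR adjusted p = 0.951), and its call ended in 9 of the 11 fits without 1 liver, all but those without chow liver 3 or DT liver 2 (edgeR adjusted p 0.0543 to 0.112). The Itga8 call ended without saline liver 1 or 4 or DT liver 3 or 4 (0.0541 to 0.0694). In each of those 4 fits 2 of the 11 matrix integrins were called, beside 13.6%, 11%, 11.5% and 11% of all genes tested, in the same order.

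Itgb1, the common beta chain and the most abundant of the 37 genes per length (50.8 CPM per kb in saline and 43.0 in DT livers), was lower in all 4 DT livers with TMM scaling, but not with total counts, where its log2 fold change was 0.11 (edgeR adjusted p = 0.515). Its TMM-scaled level was 214, 201, 201 and 214 CPM in saline and 162, 168, 180 and 193 CPM in DT livers. Without overlap the log2 fold change was -0.24 (SE 0.10, adjusted p = 0.0947) by edgeR, while DESeq2 called it lower (-0.23, adjusted p = 0.0147). Itgb1 still held 44.6% to 58.1% of the beta chain CPM per kb in DT livers, against 60.5% to 65.3% in saline livers. Itgav was at 28.7, 21.8, 34.6 and 43.8 CPM in DT livers, around the saline values, and was not called (0.11, SE 0.17, adjusted p = 0.680). Itga1, Itga7, Itga9, Itga10 and Itgb3 were not called either, with log2 fold changes from -0.30 (Itga1) to 0.82 (Itga10). Without DT liver 2, Itga9 was called higher (0.42, edgeR adjusted p = 0.0228), beside 0.26 with all 11 livers.

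Of 9 markers of stellate cells and fibroblasts 7 rose, from a sum of 199 to 383 CPM in saline livers to 702, 284, 658 and 779 CPM in DT livers. All 4 smooth muscle markers rose, from a sum of 5.38 to 10.8 CPM in saline livers to 37.2, 33.5, 23.6 and 11.9 CPM in DT livers. In DT liver 2 their sum was above all saline livers. No marker of either list was at 0 in all livers of a group. Of 7 endothelial markers 1 rose and 2 fell. Of 6 hepatocyte markers 2 fell and none rose (median log2 fold change -0.64), and their sum was 77500, 93400, 63000 and 62000 CPM in DT livers against 93800 to 110000 CPM in saline livers. All 4 DT livers were lower, DT liver 2 by the smallest margin, and no hepatocyte marker was at 0. The part of these markers in the integrin and laminin results was not tested.

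Against chow livers, DT livers showed 26 of the 37 genes higher, none lower and 11 not called, or 70.3%, while 14.8% of all genes tested were called higher and 8.16% lower. This comparison shares the DT livers with DT against saline. The median log2 fold change was 1.34, beside -0.02 over all genes. Of all genes, 23% were called with all 11 livers. Without 1 chow liver, or without DT liver 2 or 4, the count went the same way as that share. The count was 15 without chow liver 1, 16 without chow liver 2 and 15 without chow liver 3, with 10.1%, 10.6% and 10.6% of all genes called. It was 17 of 35 tested without DT liver 4 and 28 of 37 without DT liver 2, with 13.5% and 40.3%.

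The genes called against chow but not against saline were Itga4, Itgb2, Itgb7, Itga9, Itgav, Lama4 and Lamc1, for which the log2 fold changes against chow were 1.53, 1.19, 1.41, 0.79, 0.57, 1.25 and 0.95. Each of these calls ended in some of the 11 fits without 1 liver, in 10 for Lamc1, 9 for Itgav, 8 for Itga4, 6 for Itgb2, 4 for Lama4, 3 for Itga9 and 1 for Itgb7. For each of the 7 the fit without chow liver 1 was among them (edgeR adjusted p from 0.0507 for Itga9 to 0.116 for Lamc1). In Itgb7 chow livers were at 1.49 to 1.94 CPM and DT livers at 2.21 to 5.73 CPM, without overlap (1.41, SE 0.32, edgeR adjusted p = 0.0110). The reverse held for Itga2, called against saline only. Itgax had the largest fold change among the Itgb2 partners (4.29, SE 0.74, adjusted p = 0.00467), with chow livers at 0.412, 0.696 and 1.66 CPM and no overlap with DT livers.

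Ratios between 2 chains of the same type were compared as log2 ratios of CPM with a pseudocount of 0.1 CPM. Two-sided exact permutation tests over livers were used, adjusted over 6 ratios in each of 3 comparisons. None passed, and 0.0286 is the smallest p that either 3 against 4 or 4 against 4 livers can give before adjustment. After adjustment over 6 ratios, 1 ratio alone at that value cannot pass. Several would have to reach it together, so the lack of a pass says little about any 1 ratio. The ratio of Itgb4 to Itgb1 was higher in DT than in saline livers by 3.21 (exact p = 0.0286, adjusted p = 0.0858), and every DT liver was above every saline liver. The ratio of Lama5 to Lama2 was lower in saline than in chow livers by -1.69, at 3.08, 2.34 and 2.73 in chow and at 1.06, 1.23, 0.79 and 1.01 in saline livers (exact p = 0.0286, adjusted p = 0.0858). Itgax to Itgam differed between DT and saline livers by 0.59 (exact p = 0.286, adjusted p = 0.286), and its range overlapped.

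Partners of these genes were read from lists of ligands, basement membrane genes, other laminin receptors and integrin adaptors. Of 17 basement membrane genes 11 rose and none fell in DT against saline (median log2 fold change 1.05). Over all genes tested, 14.3% were called higher and 7.62% lower, with a median of 0.02. The collagen IV chains Col4a6, Col4a5 and Col4a4 rose by 4.66, 3.74 and 3.21 (edgeR adjusted p = 0.00678, 0.00624 and 0.00673). Nid1, which links laminin to collagen IV, rose from 19.3, 19.1, 29.4 and 16.8 CPM to 96.9, 19.4, 72.8 and 80.9 CPM (1.68, SE 0.38, adjusted p = 0.0127), and Col4a1 rose by 1.23 (SE 0.33, adjusted p = 0.0217). DT liver 2 lay in the saline range for both Nid1 and Col4a1, as it did for Lama2 and Lamb1 but not for Lama5, Lamb2 or Lamc3.

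Of 22 integrin ligands tested 10 rose and none fell (median 0.69), beside 14.3% of all genes called higher and 7.62% lower. Vwf, a ligand of platelet integrins that is also in the endothelial marker list, rose by 1.49, Mfge8, a ligand of alpha-v integrins, by 2.15, and Tgfb3, whose latent form these integrins bind, by 2.93 (edgeR adjusted p = 0.00422, 0.00669 and 0.00699). Spp1 (osteopontin), also in the cholangiocyte marker list, rose by 3.10 (SE 0.65, adjusted p = 0.0102). Icam1, the ligand of Itgb2 integrins, rose from 15.8, 13.3, 16.6 and 10.6 CPM to 47.0, 15.3, 26.2 and 25.6 CPM (1.02, SE 0.29, adjusted p = 0.0279). Vcam1, the ligand of VLA-4, was not called (1.07, SE 0.41, adjusted p = 0.0834), nor were the plasma and matrix proteins Fn1 (-0.47) and Vtn (-0.18).

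Of 7 other laminin receptors and hemidesmosome genes tested 3 rose (Bcam, Lgals3 and Sgce), Bcam, a receptor for the chain of Lama5, by 2.46 (SE 0.36, adjusted p = 0.00433). Among 25 adaptors, the proteins that couple integrin tails to actin, 3 rose (Fermt1, Src and Tns1) and 3 fell (Fermt2, Parva and Bcar1), with a median of 0.07. For both lists the shares over all genes tested were 14.3% higher and 7.62% lower, with a median of 0.02. Fermt1, the kindlin of epithelia, rose by 2.71, while Fermt2, the widespread kindlin, fell by 0.51 (edgeR adjusted p = 0.0110 and 0.0294). Tln1 (talin, 0.07) and Fermt3, the kindlin of blood cells (0.66, SE 0.23, adjusted p = 0.0580), were not called. In saline against chow, 2 adaptors rose (Actn1 and Tns3) and 1 fell (Lims2), 2 ligands rose (Tnc, by 2.76, and Ccn1, by 1.37), and none of the 17 basement membrane genes was called. Over all genes tested, 2.45% were called higher and 3.13% lower in that comparison.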

How the data were processed

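The deposited values are raw counts per gene that the authors made with FastQC, STAR and featureCounts on GRCm39, per the submitters' processing notes. Versions, strand, and how mates and shared reads were handled are not given in the sources used here. Low counts were mostly even (76.1% to 81.1% of counts below 20), so both mates of a pair may have been counted, and halved counts were tried.

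Counts were filtered with filterByExpr, scaled by TMM and fitted with edgeR 4.0.16 (R 4.3.3) with 1 mean per group over all 11 livers and 8 residual degrees of freedom. Levels per kb used the exon union of GENCODE M21. Alternatives were RLE factors, total counts, DESeq2 1.42.0, limma-voom (limma 3.58.1), no filter, 1 CPM in 3 libraries, only the 2 groups compared, the replicate number as a block, halved counts, each library left out and, added after the data were seen, GC correction. The calling was tested on simulated data.

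Members, roles and lists were chosen with earlier results of these data known. Values per liver are printed for up to 6 called members of each role with the smallest p in DT against saline, up to 4 in saline against chow, and Itgb1, Itgb2, Itgam, Itgax, Itgav, Itgb4, Itgb6, Lama2, Lama5, Lamc1 and Lamb3. Of the genes counted, 1 is not reported here and is left out of the figures. From each list of partners up to 4 called genes with the smallest p and 8 fixed genes could be named. Other genes named were chosen after their values were seen.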

Additional observations from a re-analysis of the deposited data

Results flagged for a closer look

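Of 74 groups of 4 livers (37 genes in saline and in DT livers), 3 held a liver whose gap to the nearest of the other 3, divided by the range of the group, was above Dixon's 95% critical value, and chance flags about 1 in 20. Lama5 in DT liver 2 was the lowest of its group at 5.01 CPM. Itgal in DT liver 2 was also the lowest, at 16.2 CPM. Itgam in saline liver 3 was the highest of the saline livers, at 0.695 CPM.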

How the results depend on the processing

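Of the 20 genes that rose in DT against saline, 14 were called in every fit without 1 liver that tested them, and 9 in every setting run (Itga11, Itga3, Itga5, Itgam, Itgax, Itgb4, Lama2, Lama5 and Lamb2). For DT against chow these counts were 13 and 7 of 26. Of the 14 in DT against saline, Itgad and Itgb6 were tested in only 8 of the 11 fits without 1 liver. They did not pass the filter on low counts without DT liver 1, 3 or 4, so those fits could not end their calls. With limma-voom 10 genes were called in DT against saline, 12 in DT against chow and 0 in saline against chow, and in DT against saline 2 epithelial, 2 leukocyte and 2 matrix members. Of all genes tested, limma-voom called 18.2%, 16.4% and 4.18% in those 3 comparisons, against 21.9%, 23% and 5.58% in the main fit. The matrix count was 2 with no filter and 2 with the replicate block, where 10.4% and 16.7% of all genes tested were called. For saline against chow 0 were called with total count scaling, 2 with DESeq2, 2 after GC correction and 13 with only the 2 groups, and DT against chow gave 17 with only the 2 groups. In the same order, 5.19%, 10.7%, 4.91%, 20.1% and 12.5% of all genes tested were called. Without 1 liver, counts ran from 0 to 9 in saline against chow, from 12 to 25 in DT against saline and from 15 to 28 in DT against chow. By role they ran in DT against saline from 3 to 6 (epithelial), 2 to 5 (leukocyte), 2 to 5 (matrix) and 5 to 9 (laminin). The share of all genes called in the fits without 1 liver also moved. It ran from 1.62% to 11.4% in saline against chow, from 10.5% to 40.3% in DT against saline and from 10.1% to 40.3% in DT against chow. Itgb5 in DT against saline was -0.01 after GC correction. The cause of these shifts was not tested. Deviations from the group means were weakly correlated between same-numbered livers (from -0.23 to 0.18). Differently numbered livers were not compared, so whether replicate numbers pair the livers cannot be told from this. With the replicate block 15, 19 and 1 genes were called in DT against saline, DT against chow and saline against chow, beside 16.7%, 13% and 3.28% of all genes. The 1 gene in saline against chow was Itga2, lower (-3.41, edgeR adjusted p = 0.0431), and not Itgb7. No ratio between chains passed in the settings run, but not all could: the smallest exact p is 0.125 or 0.25 with the block, 0.0667 for 2 against 4 livers and 0.1 for 3 against 3. In the other settings several ratios would have to reach the smallest p together to pass after adjustment. Genes near 3 counts per liver, such as Itgad and Itgb6, are limited by depth.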
